A study of Mus musculus with 68 samples.

Results

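Late prostate tumours of TRAMP mice lacking osteopontin (OPN) were compared with late tumours of TRAMP mice lacking SPARC. The members are 12 of the 68 arrays of the series, chosen by genotype code and age alone: the 3 OPN-/- TRAMP+/- arrays OT2 and OT3 (27 weeks) and OT6 (24 weeks), and the 9 SPARC-/- TRAMP+/- arrays ST1 to ST5 and ST7 (27 weeks), ST6 (29 weeks), ST15 and ST16 (24 weeks). Each array is 1 animal, and both groups carry 1 copy of the TRAMP transgene on a homozygous knockout of the named gene. All differences are OPN-null minus SPARC-null, on the log2 scale of the expression values, with the standard error (SE) of the fit. 7 late TRAMP+/- arrays without either knockout (24 to 25 weeks) serve as a further late group, and the same genotype contrast was read in 6 early OPN-null (16 to 17 weeks) against 6 early SPARC-null TRAMP animals (18 to 19 weeks) and in 3 OPN-/- TRAMP-/- animals (24 weeks) against 4 SPARC-/- TRAMP-/- animals (25 to 27 weeks). Groups outside these contrasts also entered the fits, where they add to the estimate of spread. With the transgene these were 7 early TRAMP+/- arrays (16 weeks). Without it they were TRAMP-/- arrays with neither knockout, 6 late (24 weeks) and 4 early (16 weeks). Early knockout arrays without the transgene were 5 OPN-/- (16 to 17 weeks) and 7 SPARC-/- (16 to 18 weeks). The labels call every sample a prostate tumour, also those without the transgene, and give no tumour histology, so arrays were not divided by it. They do not say how the knockouts were made or whether adjoining tissue was removed.

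TRAMP mice express the SV40 T antigens, which inactivate the p53 and retinoblastoma proteins, from a rat probasin promoter that is active in androgen-responsive prostate epithelium. Their tumours begin in luminal, secretory epithelium, and some late tumours are poorly differentiated neuroendocrine carcinomas, which express genes of neurons and secretory granules. OPN (gene Spp1) and SPARC are both secreted matricellular proteins: OPN binds integrins and CD44, and SPARC binds collagen. The comparison asks how late tumours differ according to which of these proteins the mouse lacks.

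The 3 OPN-null tumours had higher levels of neuronal, neuroendocrine, cell cycle and chromatin genes, and lower levels of luminal secretory, epithelial junction, smooth muscle, chaperone and antigen presentation genes. In the limma test, adjusted over all 22206 probe sets by the Benjamini-Hochberg method, 6563 probe sets passed an adjusted p of 0.05 and are called here (29.6%), 3511 higher (15.8%) and 3052 lower (13.7%) in OPN-null tumours. Large falls outnumbered large rises: 934 called probe sets were lower and 402 higher by at least 1 log2 unit, and 22 against 6 by at least 4. The values of the 3 OPN-null arrays lay wholly outside the range of the 9 SPARC-null arrays for 4503 probe sets (20.3%), among them 1979 of the called rises and 2034 of the called falls. The median difference over all probe sets was 0.05. Of the rises and falls of at least 1 log2 unit, 399 and 927 had a late TRAMP mean nearer to the SPARC-null than to the OPN-null mean. In bulk tissue, fewer cells of a type and less RNA per cell cannot be told apart, which holds for every gene group here.

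The control probe sets set limits to this contrast. The mean of the hybridisation controls, bacterial and phage RNAs added to each sample, was 11.87 ± 0.299 (SD, n = 3) on the OPN-null arrays and 10.60 ± 0.265 (SD, n = 9) on the SPARC-null arrays (exact permutation p = 0.00455, two-sided, the smallest that 220 splits allow). The ranges did not overlap, so this technical level and the genotype cannot be told apart. With the controls' mean as a covariate, a setting chosen after the data were seen, 1677 probe sets were called (7.55%), 804 of them among the 6563 and with the same sign, while 2064 of the 6563 changed sign. The AUC that separates positive from negative control probe sets was 0.708 ± 0.022 (SD, n = 3) against 0.743 ± 0.019 (SD, n = 9; exact permutation p = 0.0227, two-sided). OT3 was lowest at 0.683, and 4449 probe sets were called without it. The count was 2787 within the arrays of 24 weeks and 4228 within those of 27 weeks. These shifts were not separated from the genotype, so each gene group below is given with its count in the fit with the hybridisation controls ("in the control-adjusted fit"). The OPN-null arrays had control means of 11.59 to 12.19, and no other transgenic array exceeded 11.41. That fit therefore carries its slope beyond the other groups, and a call kept or lost in it does not separate technical level from genotype.

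**Figure D1:**
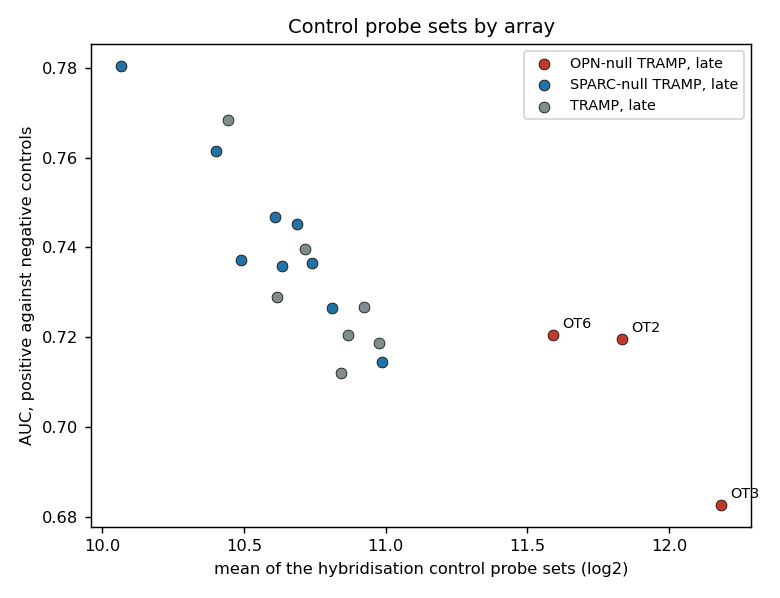
Mean of the hybridisation control probe sets (x axis, log2) against the AUC of positive over negative controls (y axis) for the late OPN-null (red, n = 3), late SPARC-null (blue, n = 9) and late TRAMP (grey, n = 7) arrays, 1 point per array. The 3 OPN-null arrays lie to the right of all others, and OT3 has the lowest AUC, 0.683.

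The deleted genes were read first. Sparc, measured by 1 probe set (TC1100002783.mm.2), had 6.81 in OT2, 6.72 in OT3 and 6.88 in OT6, against 5.77 at the lowest, 6.33 at the median and 6.52 at the highest of the 9 SPARC-null arrays. The late TRAMP arrays, with an intact Sparc, ran from 6.30 to 7.21. The knockout groups did not overlap, and Sparc was higher in OPN-null tumours by 0.58 (SE 0.17, limma adjusted p = 0.0106). The adjusted p was 0.372 in the control-adjusted fit and 0.146 within the arrays of 27 weeks. The probe set kept a signal on the SPARC-null arrays, and neither the stretch of transcript it reads nor the deleted part is known here. No probe set is named for Spp1, so the OPN genotype was not checked. The 6 SV40 control probe sets averaged 8.35 in OT2, 7.32 in OT3 and 8.01 in OT6, and between 7.28 and 8.02 on the SPARC-null arrays. Their means of 7.89 ± 0.526 (SD, n = 3) and 7.55 ± 0.258 (SD, n = 9) differed by 0.34 (exact permutation p = 0.173, two-sided); without OT3 the difference was 0.628 (exact permutation p = 0.0364).

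The 15 largest named rises were led by Slc25a21, a mitochondrial carrier of oxodicarboxylates. It had 9.91 in OT2, 8.80 in OT3 and 9.42 in OT6 against a lowest, median and highest of 3.69, 3.82 and 4.28 in the SPARC-null tumours, a difference of 5.48 (SE 0.26, limma adjusted p = 1.48e-18). Every OPN-null value was thus above every SPARC-null value by several log2 units, and above the highest late TRAMP array, at 5.76. Ipw, a long non-coding RNA of the imprinted Prader-Willi region, had 11.20, 11.44 and 11.23 in OT2, OT3 and OT6 against 5.67, 6.02 and 6.78, a difference of 5.17 (SE 0.40, adjusted p = 8.38e-13). Ccn3, a matricellular protein of the CCN family, had 10.78, 10.27 and 10.58 against 5.56, 5.93 and 6.36, a difference of 4.58 (SE 0.33, adjusted p = 2.05e-13). The other named rises were mostly genes of neurons. They were Elavl4 (4.40), Elavl3 (4.10), Syt1 (4.07), the ephrin receptor Epha7 (3.35), the protocadherin Pcdh8 (3.21), the reticulon Rtn1 (3.03), the metabotropic glutamate receptor Grm7 (2.97), the calcium-binding protein Necab1 (2.95), the sodium channel subunit Scn3a (2.93), the transcription factors Onecut1 (2.72) and Csrnp3 (2.59), and the orphan receptor Gpr85 (2.49). Their SEs ran from 0.15 to 0.40 and no adjusted p exceeded 9.49e-11. The SPARC-null level of these genes lay within the negative control probe sets, with 12% to 79% of these below it, so the log2 differences are not exact sizes of change.

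Pax9, a neighbour of Slc25a21 on chromosome 12 that was named after its values were seen, had 10.06 in OT2, 7.93 in OT3 and 10.20 in OT6 against at most 7.57 in SPARC-null tumours (difference 1.93, SE 0.24, adjusted p = 8.02e-08). Nkx2-1 in the same region differed by 0.23 (adjusted p = 0.184).

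The 15 largest named falls were led by Pbsn, whose product probasin is secreted by luminal cells under androgen control. It had 4.66 in OT2, 4.52 in OT3 and 5.66 in OT6 against a lowest, median and highest of 9.99, 11.19 and 11.55 in SPARC-null tumours, a difference of -6.02 (SE 0.60, limma adjusted p = 8.28e-10). All 3 OPN-null tumours were far below the lowest SPARC-null tumour, and 42.5% of the negative control values lay below their mean. The late TRAMP arrays ran from 7.04 to 11.49. Other secretory and epithelial genes among the falls were the polymeric immunoglobulin receptor Pigr (-5.31), the tetraspanins Tspan1 (-5.14) and Tspan8 (-4.54), the PATE family genes Pate9 (-5.06) and Pate14 (-4.88), the prostate transglutaminase Tgm4 (-4.80), the beta-defensin Defb50 (-4.65), Plac8 (-4.65), the annexin Anxa4 (-4.49) and the surface protein Ly6e (-4.43). Zfp992, a zinc finger gene, differed by -4.49. The smooth muscle genes Actg2 (-4.90), Synpo2 (-4.38) and Acta2 (-4.37) completed the list. For all 30 genes the groups' ranges lay apart, beside 20.3% of all probe sets. The 30 were picked as the largest called differences of these same arrays, so this is no separate support. Of all 6563 calls, 804 (12.3%) were also called with the same sign in the control-adjusted fit. In the control-adjusted fit 27 of the 30 were called, and the exceptions were Tgm4 (-2.39, adjusted p = 0.106), Zfp992 (-1.96, adjusted p = 0.144) and Pate14, whose sign turned (0.74, adjusted p = 0.876). Pate14 had 12.05 on ST15 and 11.12 on ST16 against a SPARC-null median of 7.77, and its adjusted p was also above the threshold within the 27-week arrays (0.0631).

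**Figure D2:**
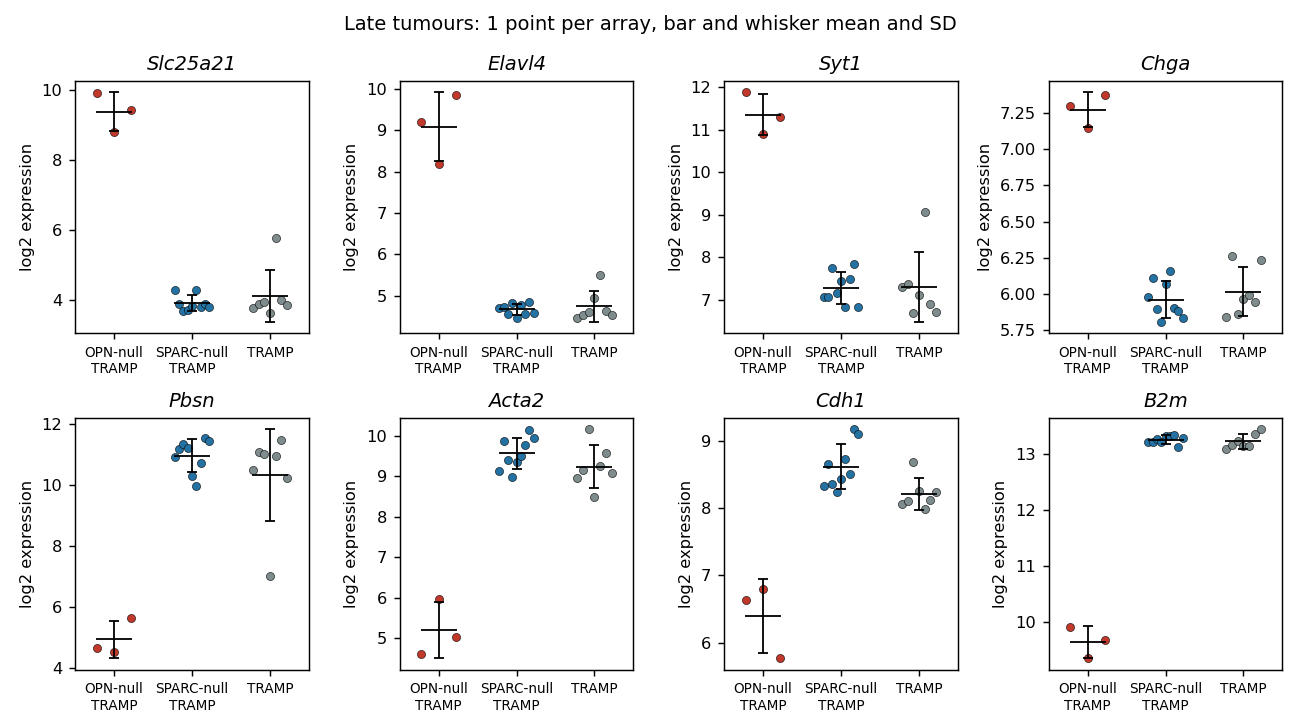
Log2 expression (y axes, each with its own range) of 8 genes on the late OPN-null (red, n = 3), SPARC-null (blue, n = 9) and TRAMP (grey, n = 7) arrays, 1 point per array with mean and SD. Slc25a21, Elavl4, Syt1 and Chga are higher and Pbsn, Acta2, Cdh1 and B2m lower in all 3 OPN-null tumours than in any SPARC-null tumour, for example 9.35 to 9.92 against 13.12 to 13.35 for B2m.

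Neuroendocrine and neuronal genes were grouped by role, and all lists were drawn up with earlier results of these arrays known. Of the transcription factors of neuroendocrine cells, 7 of 20 measured members rose (35.0%, beside 15.8% of all probe sets) and 1 fell (0 without OT3 or OT6), with a list median of 0.27 beside 0.04 for all named genes. Prox1, a homeobox factor, had 8.56 in OT2, 6.68 in OT3 and 7.46 in OT6 against 5.52 to 5.95 in SPARC-null tumours (difference 1.78, SE 0.22, adjusted p = 7.91e-08). Insm1, a zinc finger factor of neuroendocrine differentiation, had 6.68, 6.76 and 6.04 against 4.92 to 5.52 (1.24, SE 0.18, adjusted p = 1.72e-06). Mycn, the N-Myc oncogene, had 5.40, 4.99 and 5.81 against 4.16 to 4.57 (1.13, SE 0.15, adjusted p = 1.88e-07). These 3 factors were higher in every OPN-null tumour than in any SPARC-null tumour. The Mycn values lay near the median of the negative controls, 5.37. Sox11 rose by 0.58 and Lhx2 by 0.57, while Sox2, a factor of stem and neuroendocrine cells, fell by 0.58 (-0.58, adjusted p = 0.0227) and Foxa2 differed by -0.08 (adjusted p = 0.678). In the control-adjusted fit 2 members rose, Prox1 and Mycn.

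Of the genes of synaptic vesicles and secretory granules, 18 of 26 rose (69.2%) and 1 fell, with a median of 0.55; 11 rose in the control-adjusted fit. The calcium sensor of vesicle fusion, Syt1, had 11.87 in OT2, 10.90 in OT3 and 11.29 in OT6 against 6.83 to 7.85 in SPARC-null tumours. Snap25, a core protein of the fusion machinery, had 8.66, 6.5 and 8.45 against 5.34 to 5.77 (2.30, SE 0.23, adjusted p = 1.09e-09), so OT3 was the lowest of the 3 here. Ddc, which makes dopamine and serotonin from their precursors, had 9.88, 9.27 and 9.57 against 7.07 to 7.95 (2.03, SE 0.19, adjusted p = 2.75e-10). Synaptophysin (Syp), a vesicle membrane protein and pathology marker of neuroendocrine tumours, had 7.94, 7.56 and 8.12 against 5.72 to 6.28 (1.83, SE 0.17, adjusted p = 1.35e-10). The active zone gene Rims2 rose by 1.73. The granule proteins chromogranin A (Chga) and chromogranin B (Chgb) rose by 1.31 and 1.32. Chga was even across the group at 7.30, 7.14 and 7.38 against 5.81 to 6.16. The exception was the vesicular monoamine transporter Slc18a1 at -0.57 (adjusted p = 0.0391), and its groups overlapped.

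Neuronal RNA-binding and splicing genes rose in 8 of 17 cases and fell in 1, with a median of 0.47; 5 rose and Celf6 fell in the control-adjusted fit, where the median was 0.12. Elavl4, which stabilises neuronal mRNAs, had 9.20 in OT2, 8.19 in OT3 and 9.84 in OT6 against a lowest, median and highest of 4.47, 4.71 and 4.84 in SPARC-null tumours (adjusted p = 7.54e-19). Elavl3, of the same family, had 9.18, 8.68 and 8.73 against 4.58, 4.66 and 4.98. Neither gene overlapped between the groups, and both had a late TRAMP maximum under 6, at 5.49 and 5.75. The splicing factor Nova1 rose by 2.15, Rbfox1 by 1.48, the translational regulator Msi1 by 1.28 and Celf3 by 1.19. Rest, the repressor that keeps neuronal genes off in other cells, fell by 0.42 (adjusted p = 0.033, groups overlapping), with 4.21, 4.16 and 3.59 against 4.02 to 4.71. Rcor2, a corepressor of the REST complex, rose by 1.41 (adjusted p = 3.03e-08).

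Genes of neuronal adhesion and cytoskeleton rose in 13 of 22 cases and fell in 0, with a median of 0.56; 8 rose in the control-adjusted fit, 6 of them among the 13. Gap43, a growth cone protein, had 8.66, 9.20 and 8.97 in OT2, OT3 and OT6 against 7.32 to 7.68 (1.41, SE 0.16, adjusted p = 8.89e-09). The microtubule protein doublecortin (Dcx) rose by 1.39, the Notch ligand-like Dner by 1.28, the intermediate filament Ina by 1.17 and Map2 by 1.15. Ncam1, the adhesion molecule CD56, rose by 0.84 (adjusted p = 0.00789) with overlapping groups, since OT3 at 5.0 lay below the highest SPARC-null array at 5.23. The Notch pathway, which restrains neuroendocrine differentiation in other tissues, had 1 rise and 4 falls among 21 genes (median -0.04), and its 19.0% of falls lay near the 13.7% of all probe sets. Hey1, a Notch target, rose by 1.01, and Notch1 and Notch2 fell by 0.40 and 0.48, respectively; in the control-adjusted fit 0 rose and 1 fell. Without OT6 the falls numbered 1, and without OT3 the rises numbered 3. Markers of autonomic neurons and glia, which could enter with nerve tissue, had 2 rises, Prph (0.48) and S100b (0.44), and 1 fall, Hand2 (-0.50), among 9 (median 0.15), and 0 were called in the control-adjusted fit, where the median was -0.16. Prph was not called without OT2. The rises were 22.2% and the fall 11.1% of these markers, beside 15.8% and 13.7% of all probe sets. The mean level of these markers ran from 6.06 to 6.32 in OPN-null and from 6.0 to 6.23 in SPARC-null tumours. The part of nerve tissue in these results was not tested.

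Promoter sequences of some of these genes are shown because members of a list move together. Chga and Elavl3 both hold the letters CAGCTG, an E-box that proneural factors of the basic helix-loop-helix family can bind, within the 250 bases before the gene's start. The sequences are RefSeq's (GRCm38.p6), 5′ to 3′ on the gene's strand, and capitals mark the motif. Chga is at chr12:102554691-102554940 on the plus strand and Elavl3 at chr9:22052024-22052273 on the minus strand.
Chga: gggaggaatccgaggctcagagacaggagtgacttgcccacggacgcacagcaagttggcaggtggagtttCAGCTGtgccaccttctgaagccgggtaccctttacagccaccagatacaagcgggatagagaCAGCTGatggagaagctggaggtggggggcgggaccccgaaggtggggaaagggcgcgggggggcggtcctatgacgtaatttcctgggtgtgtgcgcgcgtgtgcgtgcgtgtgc
Elavl3: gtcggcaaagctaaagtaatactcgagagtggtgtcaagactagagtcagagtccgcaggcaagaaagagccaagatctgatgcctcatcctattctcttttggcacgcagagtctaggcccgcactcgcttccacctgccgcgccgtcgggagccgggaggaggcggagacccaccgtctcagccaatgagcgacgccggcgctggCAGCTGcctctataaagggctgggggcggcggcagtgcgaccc
CAGCTG, which reads the same on both strands, began 179 and 116 bases before the start of Chga and 43 bases before that of Elavl3. It was in 8 of the 15 called synaptic and granule genes that have a window, in 5 of 7 called RNA-binding genes and in 1 of 10 called adhesion and cytoskeleton genes, beside 13% of all 32851 windows and 14.1% of the 15691 measured genes with a window. The match is a description of the letters and shows no binding.

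Cell division and chromatin genes were higher. Of the cell cycle list, 14 of 26 rose (53.8%) and 0 fell (median 0.56). The control-adjusted fit gave 8 rises, 6 of them among the 14, and 1 fall. The spindle checkpoint kinase Bub1 rose by 1.22 with 5.70, 4.80 and 6.19 against 4.06 to 4.79, and cyclin E2 (Ccne2) by 1.19 with 11.49, 11.05 and 11.17 against 9.56 to 10.45. The mitotic kinase Cdk1 and the replication clamp Pcna each rose by 0.96, and cyclin A2 (Ccna2) by 0.91. The proliferation marker Mki67 differed by 0.48 (SE 0.30, adjusted p = 0.221), with 8.69 in OT2, 7.27 in OT3 and 7.84 in OT6 against 7.23 to 7.73, so OT3 lay within the SPARC-null range. Of 20 chromatin regulators 9 rose and 0 fell (median 0.33), and 4 rose in the control-adjusted fit. Ezh2, the methyltransferase of Polycomb complex PRC2, had 10.69, 10.75 and 10.68 against a lowest of 8.79 and a median of 9.46, with groups that did not overlap (1.31, SE 0.21, adjusted p = 8.05e-06), but 0.13 in the control-adjusted fit. The DNA methyltransferase Dnmt3a rose by 1.01, the chromatin remodeller Chd7 by 0.92 and Hmgb3 by 0.91, and these 3 were also called in the control-adjusted fit.

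Luminal and androgen-regulated genes were lower: 12 of 23 fell (52.2%, beside 13.7% of all probe sets) and 0 rose, with a list median of -1.17. Tgm4 had 7.35 in OT2, 7.73 in OT3 and 7.30 in OT6 against 11.56, 12.48 and 12.68 at the lowest, median and highest of the SPARC-null tumours. Defb50 had 5.40, 4.82 and 5.80 against 9.64, 9.97 and 10.83. Both genes were low in all 3 OPN-null tumours. The whey acidic protein gene Wfdc15b fell by 3.79 and Msmb, a secreted protein of prostatic fluid, by 3.60. The luminal keratins Krt18 and Krt8 fell by 2.13 and 1.41, and the androgen-regulated protease Tmprss2 by 1.36. The regulators of luminal identity Foxa1 (-0.55, adjusted p = 0.0524) and Hoxb13 (-0.58), were not called. In the control-adjusted fit 2 members fell, Pbsn and Defb50, and Foxa1 rose (0.92, adjusted p = 0.032). The secretory markers Pbsn, Tgm4 and Defb50 thus lay above 9.25, the 95th percentile of the negative controls, in SPARC-null tumours. In OPN-null tumours they lay under it. The median of these controls is 5.37, and genes called higher, such as Chga, also lay under 9.25. The level therefore does not show that a marker is absent. The Pbsn promoter is shown because the transgene uses its rat counterpart; the mouse sequence lies at chrX:77853501-77853750 on the minus strand, and capitals mark AGAACA.
Pbsn: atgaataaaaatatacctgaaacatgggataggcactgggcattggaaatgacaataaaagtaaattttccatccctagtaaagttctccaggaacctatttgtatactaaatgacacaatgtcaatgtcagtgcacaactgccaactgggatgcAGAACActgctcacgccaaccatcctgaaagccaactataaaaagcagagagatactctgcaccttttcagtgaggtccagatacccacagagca
AGAACA or its complement TGTTCT, the letters of a steroid response half-site, began 95 bases before the start of Pbsn. It was in 3 of the 10 called luminal genes with a window, beside 16.1% of all windows and 15.7% of the measured genes.

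Epithelial adhesion genes fell in 15 of 20 cases and rose in 0 (median -0.77). E-cadherin (Cdh1) had 6.64 in OT2, 6.79 in OT3 and 5.77 in OT6 against 8.25, 8.51 and 9.17 (-2.21, SE 0.23, adjusted p = 2.38e-09), with all OPN-null values below all SPARC-null values. The protease inhibitor Spint1 fell by 2.32, the epithelial transcription factor Grhl2 by 2.01, Epcam by 1.98 and the claudin Cldn7 by 1.83. In the control-adjusted fit 5 fell, among them Cdh1 (-1.44), Grhl2 (-2.28) and Cldn7 (-1.18), while Epcam was -0.18 and Spint1 -0.15. Mesenchymal transition genes fell in 8 of 14 cases and rose in 2 (median -0.40). The rises were N-cadherin (Cdh2), by 1.19, and Tgfb2, by 0.51. Fibronectin (Fn1) fell by 1.06, Prrx1 by 1.03, the TGF-beta receptor Tgfbr2 by 0.88 and Snai2 by 0.82, so both cadherins changed while most mesenchymal genes called were lower; 2 rose and 1 fell in the control-adjusted fit. Of 13 basal epithelium genes 1 rose (7.69%) and 2 fell (15.4%, beside 13.7% of all probe sets), with a median of -0.07. These were Dst at 0.62 and the integrins Itga6 at -0.86 and Itgb4 at -0.66. None was called in the control-adjusted fit. Krt5 differed by -0.32 and Trp63 by -0.14, neither called. Urothelium markers fell in 5 of 7 cases and rose in 0, with uroplakin Upk1b at -3.96 (5.81, 5.70 and 6.86 against 9.53 to 10.68); 1 fell in the control-adjusted fit.

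Smooth muscle genes fell in 12 of 15 cases and rose in 0 (median -1.28). Acta2, smooth muscle actin, had 4.61 in OT2, 5.98 in OT3 and 5.02 in OT6 against 9.0, 9.52 and 10.14 at the lowest, median and highest of the SPARC-null tumours (adjusted p = 3.86e-10). Actg2 had 5.16, 6.60 and 6.47 against 10.45, 10.94 and 11.38. All OPN-null tumours were low in both contractile actins. Calponin (Cnn1) fell by 3.49, transgelin (Tagln) by 2.94 and Mylk, the myosin light chain kinase, by 2.0. In the control-adjusted fit 6 fell. The mean level of the list ran from 6.36 to 6.53 in OPN-null, from 8.16 to 8.66 in SPARC-null and from 7.80 to 8.71 in late TRAMP tumours. Of the fibroblast markers 8 of 14 fell and 1 rose (median -0.39; 1 fell and 0 rose in the control-adjusted fit). Decorin (Dcn), a small proteoglycan of collagen fibrils, had 7.09, 7.80 and 7.86 against 10.68 to 11.59 (-3.48, SE 0.35, adjusted p = 7.31e-10), and lumican (Lum) fell by 2.45, while the rise was Fap, by 0.54. The part of stromal content in the other results was not tested.

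Matrix genes were mixed. The falls of the fibrillar collagen list were 19.0% of its members, beside 13.7% of all probe sets. The fibrillar collagen list had 1 rise, Col6a1 (0.39), and 4 falls among 21 (median 0.03). Beside Dcn and Lum the falls were the collagen chaperone Serpinh1 (-1.22) and Col3a1 (-0.79). In the control-adjusted fit Col6a1 was not called, another member rose in its place and 2 fell. Basement membrane genes fell in 6 of 17 cases and rose in 1 (median -0.22), with the laminin chain Lamc1 at -2.18, Lamb2 at -0.95 and nidogen Nid1 at -0.74; none was called in the control-adjusted fit, where Lamc1 was 0.03. Of 18 proteases and inhibitors 6 fell and 1 rose (median -0.27; 2 fell in the control-adjusted fit). Matrilysin (Mmp7), an epithelial metalloprotease, had 5.57 in OT2, 6.61 in OT3 and 5.77 in OT6 against 9.79, 10.03 and 10.66 (-4.12, SE 0.45, adjusted p = 5.42e-09), and the metalloprotease inhibitor Timp2 fell by 1.92. The sheddase Adam10 fell by 1.80 but had 0.29 in the control-adjusted fit.

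The list of other matricellular proteins, which holds neither Sparc nor Spp1, had 3 rises (15.8%) and 2 falls (10.5%) among 19 genes (median 0.02). These shares lay near the 15.8% and 13.7% of all probe sets. Ccn3 and Tnxb rose in the control-adjusted fit. Beside Ccn3, thrombospondin 4 (Thbs4) rose by 0.90 and Ccn6 by 0.77, and periostin (Postn) fell by 2.2 and Ccn1 by 0.48; Ccn1 was not called without OT2, OT3, ST1, ST3, ST4 or ST7. Of the SPARC family, 3 of 8 rose and 1 fell (median 0.30). Sparc itself, deleted in the SPARC-null group, is counted among these rises. Smoc1 had 6.71, 7.12 and 7.16 against 6.09 to 6.46 (0.79, SE 0.14, adjusted p = 5.22e-05), and was the member also called in the control-adjusted fit. Fstl1 rose by 0.62, and Sparcl1, an anti-adhesive relative of SPARC, fell from 7.66 to 9.51 in SPARC-null tumours to 6.34, 6.81 and 6.97 (-1.98, SE 0.46, adjusted p = 0.00129). Of the SIBLING family of bone phosphoproteins, whose genes lie beside Spp1, 3 of 4 rose (median 0.43): bone sialoprotein Ibsp by 0.70 (adjusted p = 0.013), Dspp by 0.44 (0.0421) and Dmp1 by 0.42 (0.046). Their calls were weak: 0 were called without OT3, 1 without ST2, ST15 or ST16, and 0 in the control-adjusted fit, where all 3 differences were negative. Among 16 receptors of OPN and SPARC 7 fell and 0 rose (median -0.31; Itgav and Eng fell in the control-adjusted fit). The OPN receptor Cd44 had 4.11, 3.84 and 3.50 against 4.46 to 5.06 (-0.92, SE 0.18, adjusted p = 0.000145). The integrin chains Itga8, Itga5, Itgb6 and Itgav fell by 0.80, 0.62, 0.45 and 0.39, the collagen receptor Ddr2 by 0.62 and the SPARC scavenger receptor Stab1 by 0.66. Without OT2, 3 receptors were called lower and 1 higher.

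**Figure D3:**
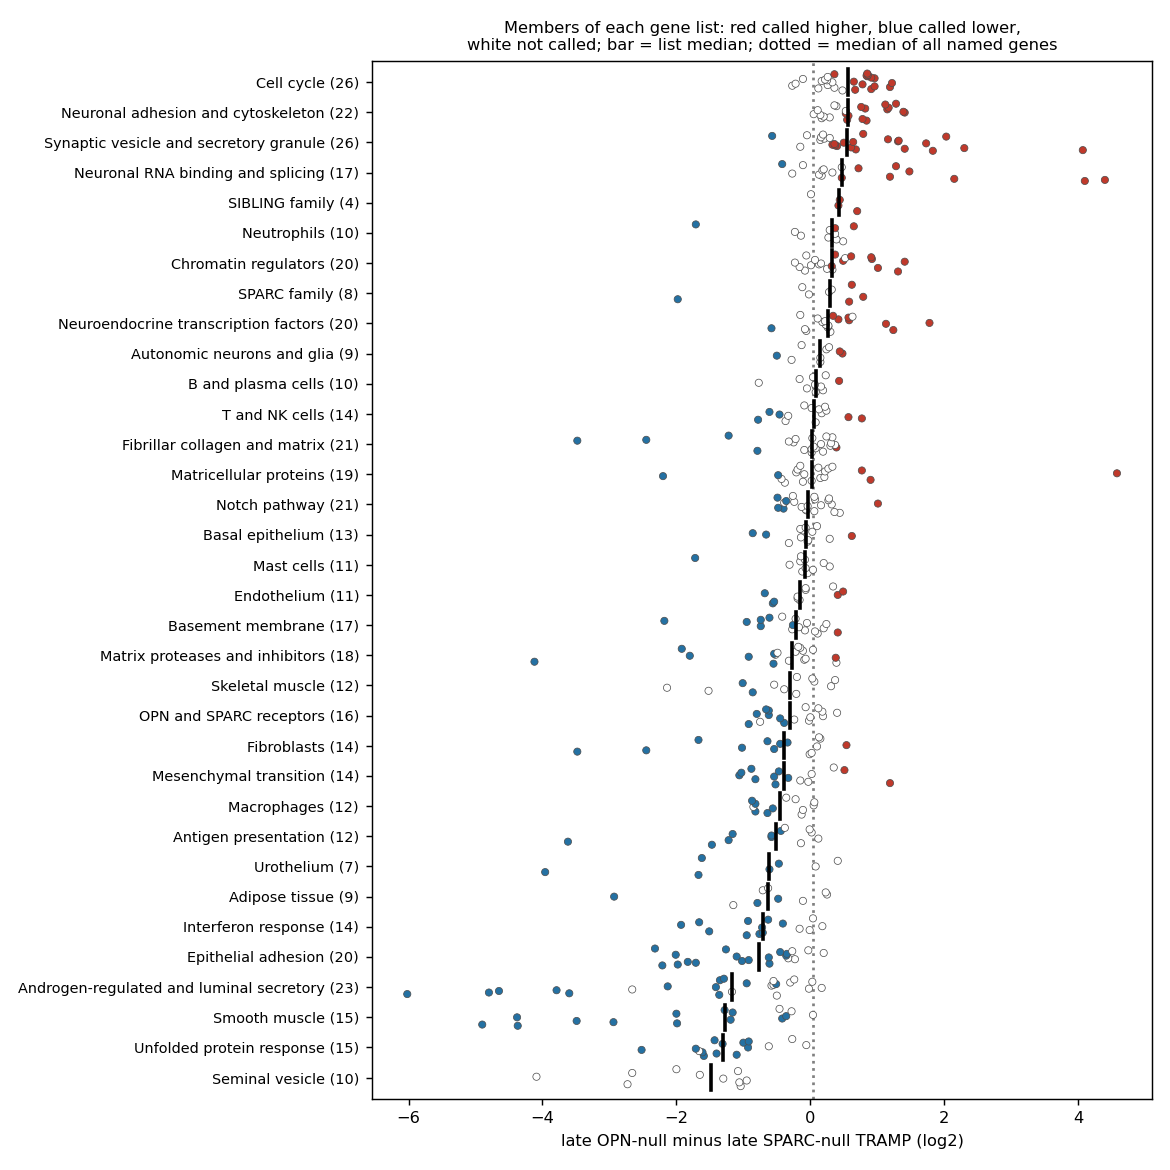
Difference between late OPN-null and late SPARC-null tumours (x axis, log2) for each measured member of the 34 gene lists (y axis, number measured in brackets). Red points were called higher, blue called lower and white not called, the black bar is the list median and the dotted line the median of all named genes (0.04). Neuronal and cell cycle lists lie to the right, with medians of 0.47 to 0.56, and smooth muscle, luminal and unfolded protein response lists to the left, with medians of -1.28, -1.17 and -1.31.

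Genes of protein folding in the endoplasmic reticulum fell in 11 of 15 cases of the unfolded protein response list and rose in 0 (median -1.31). The co-chaperone Dnajc3 had 6.08 in OT2, 5.32 in OT3 and 5.78 in OT6 against 7.76 to 8.58 (-2.52, SE 0.38, adjusted p = 4.38e-06). Herpud1, of the degradation pathway for misfolded proteins, fell by 1.71, the disulfide isomerase Pdia6 by 1.61 and the chaperone BiP (Hspa5) by 1.59. In the control-adjusted fit 1 member fell, Sdf2l1.

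Antigen presentation genes fell in 7 of 12 cases and rose in 0 (median -0.51), and 5 fell in the control-adjusted fit. Beta-2 microglobulin (B2m), the light chain of class I molecules, had 9.92 in OT2, 9.35 in OT3 and 9.67 in OT6 against 13.12, 13.28 and 13.35 at the lowest, median and highest of the SPARC-null tumours, a difference of -3.62 (SE 0.22, adjusted p = 1.08e-15). The 9 SPARC-null values lay close together, and no OPN-null tumour came near them. The class I heavy chain H2-K1 fell by 1.47, the peptide transporter Tap1 by 1.22 and the immunoproteasome subunit Psmb9 by 1.16. Interferon response genes fell in 10 of 14 cases and rose in 0 (median -0.71; 2 fell in the control-adjusted fit). Bst2, a membrane tether of virus particles, had 5.91, 5.59 and 5.28 against 6.91 to 7.95 (-1.93, SE 0.25, adjusted p = 1.68e-07), the guanylate-binding protein Gbp3 fell by 1.66, the signalling factor Irf9 by 1.51 and its partner Stat2 by 0.95.
The promoters of B2m and Bst2 are shown as those of the leading members of these lists, again from RefSeq (GRCm38.p6) and 5′ to 3′. B2m lies at chr2:122147437-122147686 on the plus strand and Bst2 at chr8:71537473-71537722 on the minus strand, and capitals mark GAAA, any 2 bases and GAAA again, the core letters of an interferon-stimulated response element.
B2m: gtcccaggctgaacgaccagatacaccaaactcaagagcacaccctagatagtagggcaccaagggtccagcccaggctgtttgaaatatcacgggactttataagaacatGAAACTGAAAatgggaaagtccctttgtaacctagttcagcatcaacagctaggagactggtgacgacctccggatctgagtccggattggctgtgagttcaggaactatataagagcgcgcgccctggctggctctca
Bst2: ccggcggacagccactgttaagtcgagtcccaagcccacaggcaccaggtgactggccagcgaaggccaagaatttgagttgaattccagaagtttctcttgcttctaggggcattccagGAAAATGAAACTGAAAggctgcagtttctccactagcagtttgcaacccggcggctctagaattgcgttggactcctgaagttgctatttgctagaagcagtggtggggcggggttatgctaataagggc
The motif began 139 bases before the start of B2m, and 130 and 124 bases before that of Bst2, where both matches overlap. Searched on both strands (the complement is TTTC, any 2 bases, TTTC), it was in 5 of the 9 called interferon genes with a window (Stat2, Bst2, Gbp2, Gbp3 and Oas1a) and in 1 of 7 called antigen presentation genes, beside 2.98% of all windows and 3.47% of the measured genes.

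Markers of other cell types were read as a list each. Macrophage genes fell in 5 of 12 cases and rose in 0 (median -0.46; C1qb and C1qc fell in the control-adjusted fit), with Mertk at -0.87, C1qa and Lyz2 both at -0.82 and Csf1r, the receptor of the lineage's growth factor, at -0.64; 3 fell without OT3. T and NK cell genes had 2 rises (Cd4 0.77, Cd8a 0.57) and 3 falls (Cd3g -0.78, Gzmb -0.61, Zap70 -0.46) among 14, with falls of Cd3e and Cd8b1 in their place in the control-adjusted fit. Both rises were lost without OT3 (Cd4 0.54, Cd8a 0.34), whose mean level of this list was 6.10 against 5.56 in OT2 and 5.72 in OT6; 0 then rose, 5 fell and the median went from 0.05 to -0.20. B and plasma cell genes had 1 rise among 10 (Mzb1 0.43; in the control-adjusted fit Ms4a1 fell in its place), and neutrophil genes 2 rises (Camp 0.65, Ltf 0.37) and 1 fall (Lcn2 -1.71) among 10, none of them called in the control-adjusted fit. Of the mast cell list, 1 of 11 fell, the transcription factor Gata2 (-1.72; in the control-adjusted fit Kit fell in its place), and endothelial genes had 2 rises (Vwf 0.49, Tie1 0.41) and 3 falls (Emcn -0.68, Pecam1 -0.56, Cdh5 -0.54) among 11, with a fall of Eng in their place in the control-adjusted fit. The T and NK, B and plasma, neutrophil, mast and endothelial list medians lay between -0.16 and 0.33. Of 12 skeletal muscle genes 2 fell (Tnnc2 -1.01, Acta1 -0.86) and of 9 adipose genes 3 fell (Fabp4 -2.93, Lep -0.79, Plin4 -0.48), with 0 and 2 falls (Plin1 and Plin4) in the control-adjusted fit. Without OT3 the adipose falls numbered 1. Of all probe sets, 15.8% were called higher and 13.7% lower. Beside this, rises and falls were 14.3% and 21.4% of the T and NK list and 18.2% and 27.3% of the endothelial list. Falls were 9.09% of the mast cell, 16.7% of the skeletal muscle, 33.3% of the adipose and 41.7% of the macrophage list. The T and NK, B and plasma, neutrophil, mast and skeletal muscle counts lay near or below the shares of all probe sets. Those calls do not set these lists apart. Calls in the smaller lists also depended on single arrays: Mzb1 was not called without OT2, OT3 or ST2, Ltf without OT3 or OT6, Tie1 and Cdh5 without OT2 or OT3, Emcn without OT2 or OT6, Tnnc2 without OT2 or OT3, and Acta1 without OT6.

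Seminal vesicle genes, which mark tissue adjoining the prostate, gave 0 calls among 10 in limma, although their median difference was -1.48; in the control-adjusted fit there were also 0 calls and the median was -0.08. Their mean level ran from 5.33 to 5.57 in the OPN-null tumours and from 5.25 to 11.22 in the SPARC-null tumours. Svs5, with the largest difference of the list, had 5.37, 5.56 and 4.98 in OT2, OT3 and OT6 against a lowest, median and highest of 4.97, 11.56 and 13.21, a difference of -4.09 (SE 1.85, adjusted p = 0.0908). Some SPARC-null arrays thus carried a strong seminal vesicle signal and others none above the OPN-null arrays. The part of this tissue in the secretory genes was not tested.

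**Figure D4:**
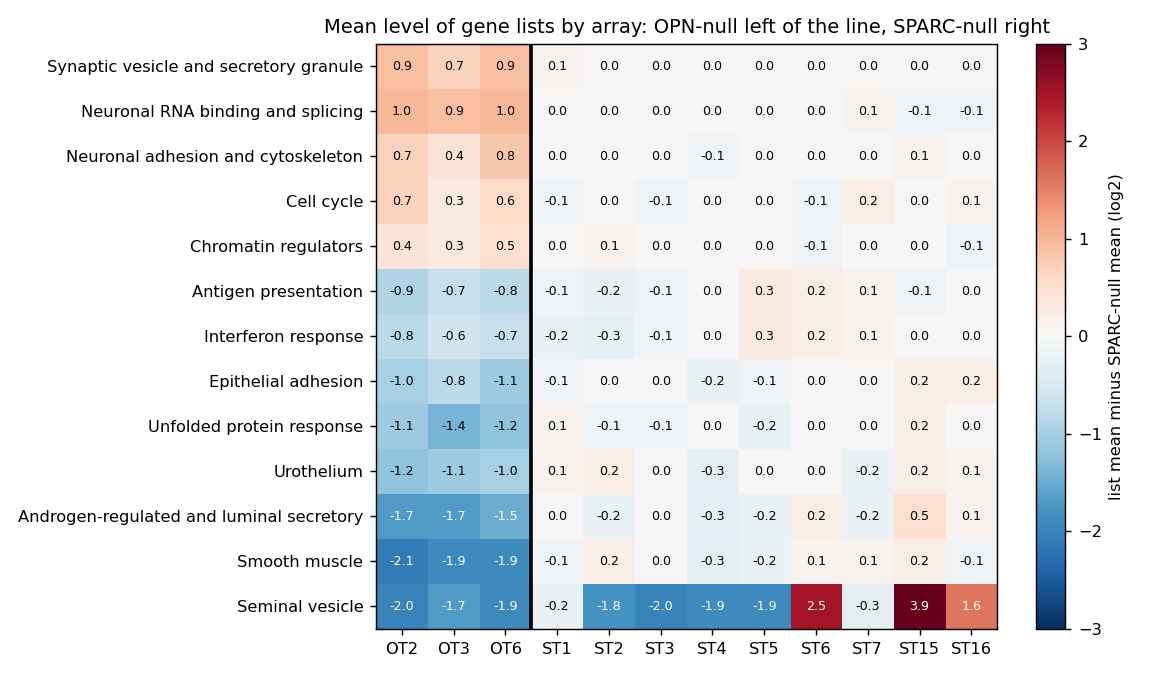
Mean log2 level of 13 gene lists on each of the 12 arrays (columns), less the mean over the 9 SPARC-null arrays; red is higher and blue lower, with the value in each cell and colours ending at a difference of 3. The 3 OPN-null arrays (left of the line) differ from all SPARC-null arrays in every list but that of seminal vesicle, whose mean level spans 5.25 to 11.22 among the SPARC-null arrays.

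The 3 OPN-null tumours were not alike. OT3 was the lowest of the 3 for 220 of the 402 rises of at least 1 log2 unit and also the lowest for 488 of the 934 falls of that size. Among SPARC-null tumours ST15 or ST16, both of 24 weeks, had the highest value for 637 of the 934 falls. Over all target probe sets, pairs of OPN-null arrays correlated with r of 0.925 to 0.964, pairs of SPARC-null arrays with 0.938 to 0.988 and pairs across the groups with 0.815 to 0.922 (descriptive, over probe sets that share array and normalization).

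The genotypes were compared in early tumours to see whether the difference was already present at 16 to 19 weeks. In the limma test 4 probe sets were called (0.018%), with 3090 at an unadjusted p under 0.05. The named calls were falls of Zfp865 (-0.56, SE 0.09, adjusted p = 0.00162) and Trmo (-0.61, SE 0.11, adjusted p = 0.0147), whose late differences were -0.11 and -0.10, not called. Without ST25 the count was 62, and without any other array it lay between 2 and 7. Of the 30 genes named above 0 were called early, and their early differences ran from -0.20 to 0.33 for the rises and from -0.12 to 2.04 for the falls. Slc25a21 differed by 0.05, Elavl4 by -0.08 and Syt1 by 0.10 in early tumours, while Pbsn differed by 0.62. Of the 34 lists, 0 had a member called early.

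The change of the genotype difference from early to late, tested as an interaction, was called for 6026 probe sets (27.1%), 3438 more positive late (15.5%) and 2588 more negative (11.7%). This test contains the late difference itself, so both share their late arrays. The 30 named genes were picked by that difference, so their calls here are no separate support. All 30 named genes were called, from 5.43 (SE 0.34, adjusted p = 1.92e-14) for Slc25a21 and 4.48 for Elavl4 to -6.64 (SE 0.80, adjusted p = 1.14e-07) for Pbsn. Of the synaptic and granule genes 14 of 26 were more positive late and 1 more negative, of the cell cycle genes 14 and 0 of 26, of the luminal genes 0 and 13 of 23, of the smooth muscle genes 0 and 11 of 15, and of the unfolded protein response genes 0 and 13 of 15. The early SPARC-null tumours were older than the early OPN-null ones, and the count was 3886 with age as a covariate, 2777 with the AUC as a covariate and 592 in the control-adjusted fit.

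**Figure D5:**
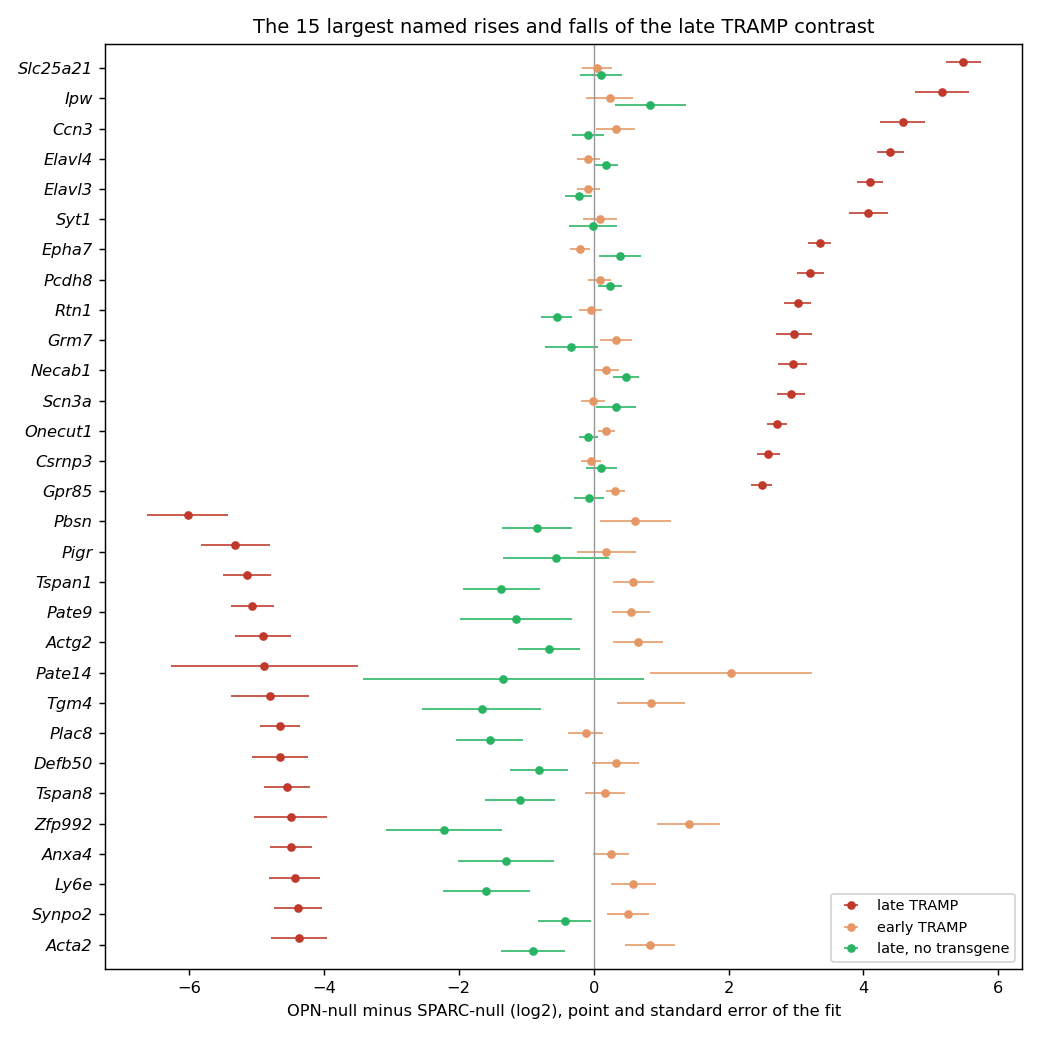
OPN-null minus SPARC-null difference (x axis, log2, with the standard error of the fit) of the 15 largest named rises and falls in late TRAMP (red), early TRAMP (orange) and late mice without the transgene (green). Late differences of 2.49 to 5.48 and of -4.37 to -6.02 stand beside early ones between -0.20 and 2.04.

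Without the transgene, late OPN-null animals differed from late SPARC-null animals at 2598 probe sets (11.7%), 1480 higher (6.66%) and 1118 lower (5.03%), in limma. This count depended on single arrays: it was 0 without O2 and 0 without O14, which had an AUC of 0.691 and 0.678 against 0.755 to 0.799 in the SPARC-null group, with 4697 and 3925 probe sets at an unadjusted p under 0.05. It was 6284 without O7, and 1519, 882 and 397 without S3, S5 and S6. It was 1 in a fit on these groups alone, 1 with the AUC as a covariate and 4550 with the hybridisation controls. Among the 30 named genes Plac8 was called (-1.54, adjusted p = 0.0444), and the neuronal rises were not: Slc25a21 differed by 0.11, Elavl4 by 0.18, Syt1 by -0.01 and Ccn3 by -0.08. Pbsn differed by -0.84 (adjusted p = 0.262). Calls of the same sign in both late contrasts numbered 819, which is 12.5% of the transgenic and 31.5% of the non-transgenic calls, and 36 had opposite signs. The largest of the 819 beside Plac8 were the lipoprotein gene Apof (-3.64 and -1.88, with and without the transgene), Pdzk1ip1 (-3.59 and -2.0), the adenylate kinase Ak3 (-3.35 and -1.31), the glucosyltransferase of glycoprotein folding Uggt1 (-3.30 and -3.27), Itm2b (-3.27 and -1.83), the RNA sensor Tlr3 (-2.92 and -1.34) and the receptor kinase Erbb2 (-2.70 and -0.84). Without O14 these differences were still negative, for example -2.24 for Uggt1, -1.56 for Apof and -0.83 for Erbb2, and without O2 they were -3.27, -1.76 and -0.81, but 0 probe sets were then called.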

How the data were processed

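RNA of each tumour was hybridised to a Clariom S array. The deposited values are log2 expression values per probe set, made by the authors with RMA in the oligo package, per the submitters' processing notes (versions not given in the sources used here). RMA includes quantile normalization, which sets all arrays to a common distribution and compresses differences at low signal. Deposited values ran from 2.70 to 13.74. Of 29129 probe sets, 6923 controls were left out and 22206 tested without a filter; 19572 carry 1 gene symbol, 2634 none and 0 several, and where several probe sets carry a symbol (55 genes), the one with the highest mean stands for the gene. 0 columns were unused.

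Group means of the 38 transgenic arrays (6 groups), and separately of the 29 non-transgenic arrays, were fitted in R 4.3.3 by the moderated linear model of limma 3.58.1 (2-sided), with Benjamini-Hochberg adjustment and a threshold of 0.05. 1 array whose genotype label and code disagree was left out. Array codes name animals; a check of their numbers found no pairing, and whether animals shared a litter or batch is not given. P-values rest on the spread between animals within groups, pooled over all groups of a fit and moderated across probe sets. They do not rest on the compared animals alone, whose number limits the precision. For late rises of at least 1 log2 unit the median SD was 0.43 in OPN-null and 0.2 in SPARC-null tumours. For late falls of that size it was 0.36 and 0.33. The fit was also run on simulated data with independent noise for each probe set and array. That simulation holds no shift shared by a whole array, so it does not bear on the difference in hybridisation controls.

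The members, the 34 lists and the tests were chosen with earlier results of these data known. The text names Sparc and the called genes with the 15 largest rises and the 15 largest falls (predicted genes and olfactory or vomeronasal receptors left out). It names up to 5 called members a list with its defining members, and the called members of the SPARC, SIBLING and receptor lists. The 5 largest calls each way of the other contrasts are named where they bear on the late one. Alternatives, given below, were fits on the compared groups alone, a signal filter, array weights, a trended prior, array quality, renewed quantile normalization, age, and each array left out. The hybridisation covariate, the fit without ST15 and ST16 and the fits on late transgenic groups, with the code number as a block and without it, were added after the data were seen.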

Additional observations from a re-analysis of the deposited data

Results flagged for a closer look

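Single SPARC-null tumours stood far from the other 8 by Dixon's criterion for 12 of the 180 values tested, where chance flags about 1 in 20. ST15 was high for Defb50 (10.83), Maml2 (7.78), Postn (8.88) and Apod (8.74). ST1 was high for Ina (6.31) and Ddr1 (5.52) and low for Cdk1 (4.56). ST6 was low for Pate9 (9.85) and Pdia6 (9.47) and high for Cd3g (6.53). ST4 was high for Mycn (4.57) and ST7 for Itgb5 (8.30).

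The genotype difference changed from early to late tumours by an interaction test in limma for all 30 leading genes. These 30 were picked by their late difference, which the test contains, so their calls are no separate support. Over all probe sets the interaction was called for 6026, and for 592 in the control-adjusted fit. More positive late were Slc25a21 (5.43), Ipw (4.93), Elavl4 (4.48), Ccn3 (4.26), Elavl3 (4.18), Syt1 (3.97), Epha7 (3.54), Pcdh8 (3.11), Rtn1 (3.07), Scn3a (2.94), Necab1 (2.77), Grm7 (2.64), Csrnp3 (2.63), Onecut1 (2.53) and Gpr85 (2.17). More negative late were Pate14 (-6.92), Pbsn (-6.64), Zfp992 (-5.90), Tspan1 (-5.74), Tgm4 (-5.66), Pate9 (-5.61), Actg2 (-5.56), Pigr (-5.50), Acta2 (-5.20), Ly6e (-5.03), Defb50 (-4.98), Synpo2 (-4.89), Anxa4 (-4.75), Tspan8 (-4.70) and Plac8 (-4.53). The seminal vesicle gene Svs5 (-6.67) and the respiratory chain gene Ndufa1 (-6.07) were also among the most negative. Svs5 was called in neither age alone, with a difference of 2.58 early and -4.09 late, and Ndufa1 differed by 2.18 early and -3.88 late.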

How the results depend on the processing

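For the late contrast (6563 called), the count was 1677 with the hybridisation controls as a covariate, 4228 within 27 weeks and 2787 within 24 weeks, where OT6 stands alone and is assumed to vary like the other groups; leaving out 1 array gave 4449 to 6829. The other settings gave 4407 to 7768. For the early contrast (4) it was 1 in a fit on the compared groups, with age or with the hybridisation controls, 7 with the AUC as a covariate, and 2 to 62 without 1 array (62 without ST25). For the interaction (6026) it was 3983 with array weights, 2777 with the AUC, 3886 with age, 592 with the hybridisation controls, and 4536 to 6716 without 1 array. Without the transgene (2598) it was 1 on the compared groups, 1521 with the signal filter (which tests fewer probe sets), 6961 with array weights, 0 without arrays of AUC under 0.7 (1235 at an unadjusted p under 0.05), 1 with the AUC, 4550 with the hybridisation controls and 0 to 6284 without 1 array, with 397 to 2182 when a SPARC-null array was left out. The SV40 difference of 0.341 ran from 0.112 to 0.628 without 1 array, the highest without OT3, and was 0.147 with the median of the probe sets. In the late contrast the numbers 2, 3 and 6 occur in animal codes of both groups. Same-numbered arrays did not deviate together (correlations of -0.02 to 0.07, against 0.25 for OT3 with ST4), so the numbers are not taken to pair animals. In a fit on the 3 late transgenic groups, added after the data were seen, 6230 probe sets were called with the number as a replicate block and 7768 without it. The early groups share no number and the groups without the transgene share 1, so no block could be fitted there.

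With the hybridisation controls as a covariate the sign turned for Pate14 (0.74), Wfdc15b (0.08), Col6a1 (-0.00), Lamc1 (0.03), Postn (0.18), Sparcl1 (0.26), Ibsp (-0.39), Dmp1 (-0.13), Dspp (-0.28), Itga5 (0.20), Itga8 (0.28), Adam10 (0.29), Dpt (0.19), Apod (0.06), Cdh5 (0.18), Tie1 (-0.23), Creld2 (0.09), Cd4 (-0.17), Mzb1 (-0.25), Upk1a (0.23), Upk3b (0.07) and Psca (0.30), none called there. Within 24 weeks it turned for Ccn1 (0.23) and C1qc (0.17). Of the 177 genes named by the rule, 78 kept their sign and lost their call with the hybridisation controls, beside the 22 whose sign turned; 23 lost it with the AUC and 21 without OT3, and the cause was not tested.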
